A study of Homo sapiens with 9 samples.

Results

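STC1, STC2, ADM, ADM2 and PTHLH encode secreted hormones, and their transcripts were followed through knockdown of ARNT or BMAL1 in a kidney cancer cell line. The 5 genes were taken by name from a count table of 38019 genes, and each had a single row. RNA came from 786-O cells, an established human line from a clear cell renal cell carcinoma (ccRCC). These cells lack functional VHL and therefore keep HIF2α (EPAS1) stable at normal oxygen. Cells of every group carried a lentiviral PLKO.1 construct, were selected and kept in puromycin, and grew in Dulbecco's modified Eagle's medium with fetal bovine serum. The construct expressed a control hairpin (shControl, labelled WT), a hairpin against ARNT (shARNT) or a hairpin against BMAL1 (shBMAL1). There were 3 libraries in each group, which the labels call biological replicates. The labels name no second hairpin for either target, so an effect of the hairpin cannot be told apart from an effect of the gene. The labels do not say that the 3 libraries came from separate infections, so p-values measure only the spread between these libraries. The comparisons below ask how these hormone genes responded to knockdown of ARNT or of BMAL1. ARNT is the usual partner of HIF2α, and BMAL1 is a related protein of the circadian clock.

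Stanniocalcin 1 (STC1) and stanniocalcin 2 (STC2) are glycoprotein hormones first known from fish, where they limit calcium uptake. In mammals they act locally, and both inhibit the pappalysins, proteases that release insulin-like growth factors from their binding proteins. Adrenomedullin (ADM) and adrenomedullin 2 (ADM2, also called intermedin) are peptides of the calcitonin family that widen blood vessels and signal through the receptor CALCRL joined to a RAMP subunit. PTHLH encodes parathyroid hormone-related protein, which signals through PTH1R and is a common cause of high blood calcium in cancer. ADM and STC2 are well-known hypoxia-responsive genes, and STC2 and ADM2 are also induced in endoplasmic reticulum and amino acid stress. HIF2α and ARNT bind DNA together at hypoxia response elements, and BMAL1 with its partner CLOCK binds at E-boxes, a motif of the same family.

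Promoter sequence from the RefSeq table of GRCh38.p14 is shown for STC2, ADM, ADM2 and PTHLH, because the factors knocked down bind DNA at short motifs. No window is shown for STC1. Each line gives 250 bases up to the transcription start, 5′ to 3′ on the strand of the gene. Capitals mark each GCGTG, 1 of the 2 forms of the core of a hypoxia response element, or its reverse complement CACGC.
STC2: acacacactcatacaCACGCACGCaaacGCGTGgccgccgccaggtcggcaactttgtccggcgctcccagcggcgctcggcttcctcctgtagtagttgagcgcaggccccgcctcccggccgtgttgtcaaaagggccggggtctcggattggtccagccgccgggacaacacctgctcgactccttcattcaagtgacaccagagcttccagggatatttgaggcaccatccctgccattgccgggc
ADM: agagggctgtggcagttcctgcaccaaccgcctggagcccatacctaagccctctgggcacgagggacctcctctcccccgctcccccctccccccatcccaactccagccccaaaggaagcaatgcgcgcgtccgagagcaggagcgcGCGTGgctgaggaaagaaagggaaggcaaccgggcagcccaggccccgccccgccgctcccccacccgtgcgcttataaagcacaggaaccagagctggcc
ADM2: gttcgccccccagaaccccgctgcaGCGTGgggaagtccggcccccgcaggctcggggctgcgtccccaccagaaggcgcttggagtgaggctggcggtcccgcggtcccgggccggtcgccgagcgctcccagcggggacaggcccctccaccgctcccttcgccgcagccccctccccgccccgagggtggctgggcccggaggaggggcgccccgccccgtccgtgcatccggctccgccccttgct
PTHLH: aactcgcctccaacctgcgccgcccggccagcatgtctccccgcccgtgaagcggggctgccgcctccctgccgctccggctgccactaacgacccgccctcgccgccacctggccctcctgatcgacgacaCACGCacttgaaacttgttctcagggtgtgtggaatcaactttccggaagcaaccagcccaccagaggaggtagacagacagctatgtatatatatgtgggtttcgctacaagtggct

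The STC2 window (chr5:173328415-173328664, minus strand) held 3 matches, which began 235, 231 and 222 bases before the start. The matches at 235 and 231 bases lie on the opposite strand to the gene and share a base. The ADM window (chr11:10304823-10305072, plus strand) held 1 match at 101 bases before the start. In the ADM2 window (chr22:50481293-50481542, plus strand) the match began 225 bases before the start. The PTHLH window (chr12:27969977-27970226, minus strand) held 1 match on the opposite strand, 118 bases before a start that lies inside the gene, since PTHLH has several annotated starts. Searches covered both strands for ACGTG and GCGTG, the forms of the core, and for the E-box CACGTG, which contains ACGTG. Neither ACGTG nor CACGTG occurred in the 4 windows. Such matches are common: among 35116 promoters of the same length, 43.2% held at least 1 core, 7.76% held at least 3, and 6.34% held an E-box. A match in the sequence is a description and not a measured binding site.

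Library totals ran from 33793067 to 35444757 reads. Values are normalised read counts, that is, counts divided by a size factor for each library, with n = 3 libraries per group and errors as SD unless stated. A gene was called changed where the DESeq2 adjusted p was under 0.1. ARNT fell from 2352 ± 184 in shControl to 1225 ± 23.2 in shARNT, a change of −0.94 on the log2 scale (SE 0.0738, adjusted p 8.7e-35), and had 2014 ± 76.2 in shBMAL1, where it was also called lower (−0.23, adjusted p 0.0187). BMAL1, listed as ARNTL, fell from 761 ± 32.0 in shControl to 326 ± 29.2 in shBMAL1, a change of −1.23 on the log2 scale (SE 0.114, adjusted p 2.52e-25), and had 633 ± 57.8 in shARNT, where it was also called lower (−0.26, adjusted p 0.0293). Each knockdown thus came with a smaller fall in the transcript targeted by the other. At the protein level, the study's immunoblots instead showed a slight rise of each partner when the other was depleted. HIF2α protein was not reduced there. EPAS1, the HIF2α gene, had 11110 ± 568 in shControl against 9426 ± 594 in shARNT and 10656 ± 585 in shBMAL1, and was called lower under shARNT (log2 fold change −0.23, adjusted p 0.000562). The genes listed for a renal epithelial carcinoma line, PAX8, PAX2, CDH6, KRT8, KRT18 and VIM, were all expressed. Their levels moved with the groups in both directions. Under shARNT 2 of the 6 were called higher, CDH6 (log2 fold change 1.01) and KRT8 (0.31), and 1 lower, VIM (−0.18), where 16.5% of all genes tested were called higher and 19% lower. Under shBMAL1 2 were called higher, CDH6 (1.72) and PAX2 (0.43), and 3 lower, PAX8 (−0.49), KRT18 (−0.40) and VIM (−0.21), where 17.4% were called higher and 19.4% lower. Of 7 markers of leukocytes, endothelium and fibroblasts, CD3E and CDH5 had no read, and PTPRC and DCN had group means of 0.982 and 1.64 at most. The collagen gene COL1A1 was the 1 marker of the 7 with enough reads to be tested under shARNT, and it was called lower there (149 ± 12.2 against 112 ± 7.93, adjusted p 0.0993). Under shBMAL1 3 of the 7 were tested and none was called. The 7 markers summed to 153 to 171 normalised counts in the shControl libraries, 130 to 139 in shARNT and 142 to 179 in shBMAL1. Mitochondrial genes took 5.49% to 7.18% of reads in the shControl libraries, 7.64% to 8.79% in shARNT and 8.77% to 9.73% in shBMAL1. The mitochondrial share, these genes of the carcinoma line and, under shARNT, COL1A1 moved with the groups compared below. Their part in the results was not tested.

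All 5 hormone genes were expressed in 786-O cells, and ADM was the most abundant for its length. In shControl, ADM reached 927 ± 15.04 normalised counts per kb of annotated exon. PTHLH followed at 396 ± 22.7 per kb, then STC2 at 363 ± 11.8 and STC1 at 292 ± 48.0. ADM2 was far lower, at 15.6 ± 1.03 per kb. The libraries of PTHLH (378 to 421), STC2 (352 to 375) and STC1 (247 to 343) did not overlap, although the gaps between them were small against the spread of STC1. In shARNT the order changed to ADM at 494 ± 45.4, STC2 at 135 ± 11.6, PTHLH at 88.4 ± 3.58, STC1 at 82.7 ± 5.94 and ADM2 at 7.80 ± 1.40 per kb. PTHLH and STC1 overlapped there. In shBMAL1 the order was ADM at 945 ± 112, STC2 at 214 ± 33.0, PTHLH at 192 ± 13.7, STC1 at 137 ± 10.8 and ADM2 at 11.02 ± 3.49 per kb, with STC2 and PTHLH overlapping. These levels use all annotated exons of each gene, so they depend on which transcripts the cells made.

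**Figure D1:**
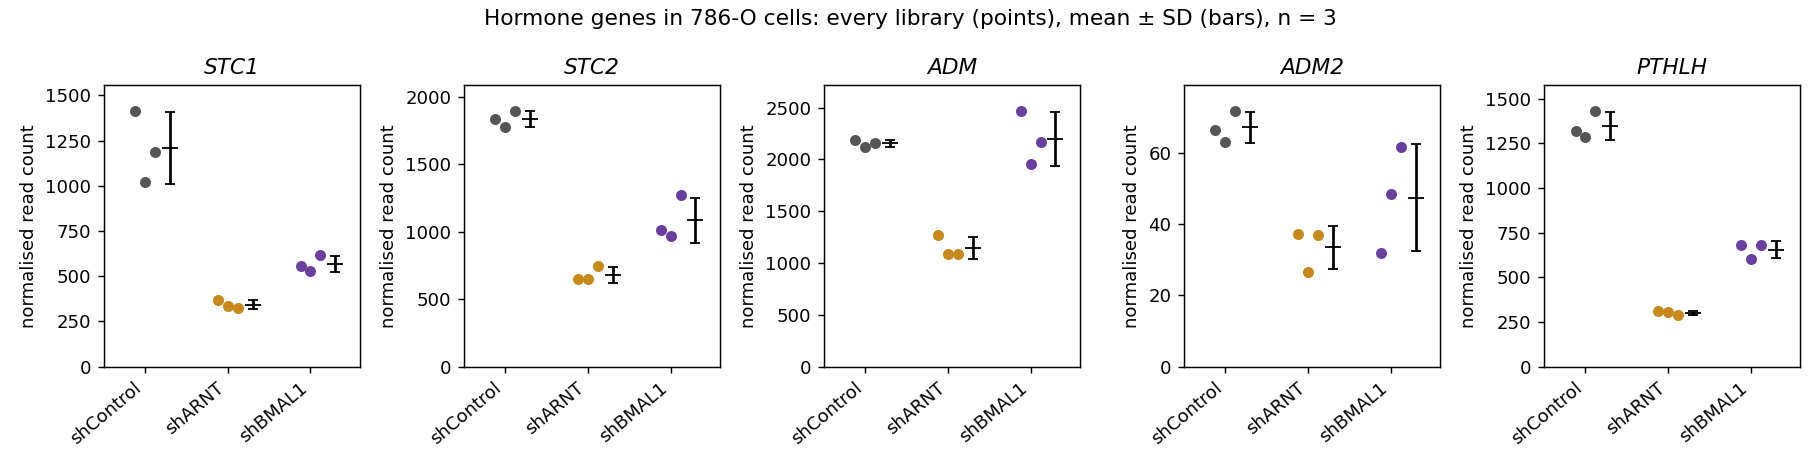
Normalised read counts of STC1, STC2, ADM, ADM2 and PTHLH in every library (points, n = 3 per group), with the mean ± SD beside them; each panel has its own axis from 0. All shARNT points lie below all shControl points in the 5 panels, while the shBMAL1 points of ADM spread around the shControl points.

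Knockdown of ARNT lowered all 5 hormone genes. PTHLH fell the most, then STC1, STC2, ADM2 and ADM, with changes from 4.47-fold to 1.87-fold. All 5 were called lower, where 19% of the 15170 genes tested were called lower and 16.5% higher. In all 5 the shARNT libraries lay wholly below the shControl libraries, as they did for 23% of the genes tested. The median log2 fold change was −1.43 over the 5 genes and 0.0028 over all genes tested. In bulk RNA such as this, fewer cells that express a gene and less RNA per cell cannot be told apart.

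Knockdown of BMAL1 lowered 3 of the 5 genes, STC1, PTHLH and STC2, and none of them was called higher. In this comparison 19.4% of 19045 genes tested were called lower and 17.4% higher. ADM and ADM2 did not pass the test. The shBMAL1 libraries lay wholly below the shControl libraries for STC1, STC2, PTHLH and ADM2, which was the case for 22.9% of the genes tested. For ADM2 the highest shBMAL1 library had 61.7 and the lowest shControl library 63.0 normalised counts, from 63 reads in each. The median log2 fold change was −0.76 over the 5 genes and 0.02 over all genes tested. The same shControl libraries stand in both comparisons, so the chance values of those libraries enter both.

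The knockdowns were then compared directly, shBMAL1 against shARNT. By the fitted fold change, ARNT kept 52.2% of its shControl level in shARNT, and ARNTL kept 42.8% in shBMAL1. The part of this unequal depth in the comparison was not tested. PTHLH, ADM, STC1 and STC2 were higher in shBMAL1, and ADM2 did not pass the test. Here 17.2% of 18192 genes tested were called higher and 18% lower. The shBMAL1 libraries lay wholly above the shARNT libraries for those 4 genes, as for 22.2% of the genes tested.

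**Figure D2:**
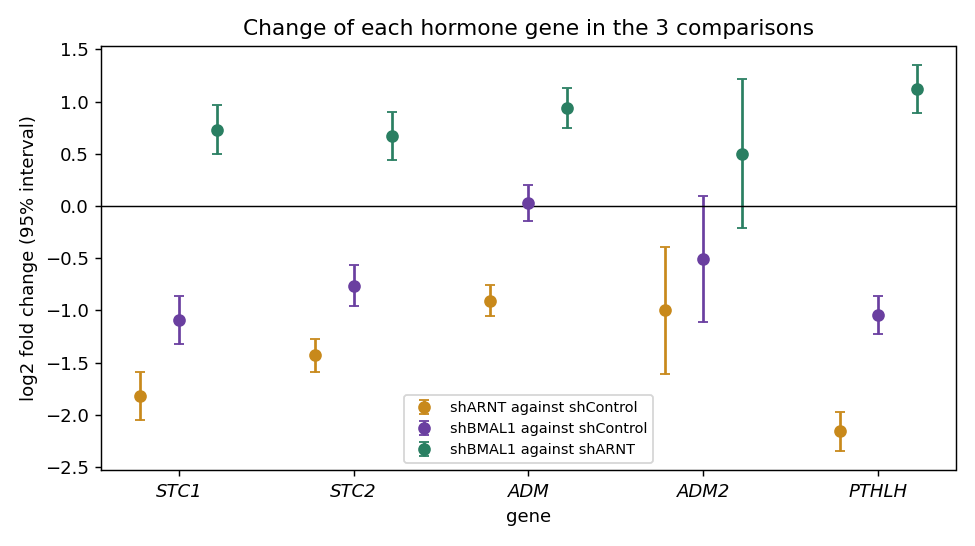
Log2 fold change of each hormone gene (points) with its 95% confidence interval (bars) in the comparisons of shARNT with shControl, shBMAL1 with shControl and shBMAL1 with shARNT. All 5 intervals lie below 0 for shARNT, the intervals of ADM and ADM2 include 0 for shBMAL1, and only the interval of ADM2 includes 0 between the knockdowns.

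STC1 lies on chromosome 8 (GRCh37, 23699442 to 23712319, minus strand, protein-coding). Its shControl libraries had 1417, 1022 and 1189 normalised counts. The shARNT libraries had 369, 334 and 322, and the shBMAL1 libraries had 556, 530 and 617. The 3 groups formed separate bands, with shARNT lowest and shControl the most scattered, at a coefficient of variation of 16.4%. The log2 fold change was −1.82 (SE 0.118, adjusted p 2.44e-51) under shARNT, a 3.53-fold fall. Under shBMAL1 it was −1.09 (SE 0.119, adjusted p 1.61e-18), a 2.13-fold fall. Under shARNT 0.356% of the genes tested had a lower log2 fold change than STC1. Between the knockdowns STC1 was 1.66-fold higher in shBMAL1 (log2 fold change 0.73, SE 0.12, adjusted p 1.96e-08).

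STC2 lies on chromosome 5 (GRCh37, 172741726 to 172755450, minus strand, protein-coding). Its shControl libraries were close together at 1836, 1780 and 1900 normalised counts. The shARNT libraries had 647, 647 and 748, and the shBMAL1 libraries had 1013, 966 and 1276. The groups again did not overlap, and the third shBMAL1 library stood above the other two. The log2 fold change was −1.43 (SE 0.0817, adjusted p 5.62e-66) under shARNT, a 2.70-fold fall. Under shBMAL1 it was −0.76 (SE 0.101, adjusted p 1.12e-12), a 1.70-fold fall. STC2 was 1.59-fold higher in shBMAL1 than in shARNT (log2 fold change 0.67, SE 0.116, adjusted p 9.76e-08). Both stanniocalcins thus held intermediate levels in shBMAL1, 47.0% of the shControl mean for STC1 and 59.0% for STC2.

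PTHLH lies on chromosome 12 (GRCh37, 28111017 to 28125666, minus strand, protein-coding). The shControl libraries had 1320, 1288 and 1434 normalised counts. The shARNT libraries had 311, 304 and 287, and the shBMAL1 libraries had 679, 601 and 684. These values also fell into 3 separate bands, with the shARNT libraries nearly equal. The log2 fold change was −2.16 (SE 0.0951, adjusted p 4.31e-111) under shARNT, a 4.47-fold fall that 27 of the 15170 genes tested exceeded. Under shBMAL1 it was −1.04 (SE 0.0944, adjusted p 1.37e-26), a 2.06-fold fall. PTHLH was 2.17-fold higher in shBMAL1 than in shARNT (log2 fold change 1.12, SE 0.116, adjusted p 3.55e-20), the largest direct difference of the 5. Of its annotated exon bases, 353 (10.4%) overlap a long noncoding RNA on the opposite strand. Whether counting used the strand is not given in the sources used here, so reads in those bases cannot be assigned to PTHLH alone.

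ADM lies on chromosome 11 (GRCh37, 10326620 to 10328944, plus strand, protein-coding). Its shControl libraries had 2186, 2117 and 2160 normalised counts, the tightest group of the set. The shARNT libraries had 1270, 1082 and 1091, and the shBMAL1 libraries had 2471, 1953 and 2169. The shARNT group was separate, and the shBMAL1 group had libraries both above and below all 3 controls. The log2 fold change was −0.91 (SE 0.0762, adjusted p 1.58e-30) under shARNT, a 1.87-fold fall. Under shBMAL1 it was 0.03 (SE 0.088, adjusted p 0.868), with a 95% confidence interval from −0.15 to 0.20. Without the first shBMAL1 library this value became −0.066 (adjusted p 0.595). ADM was 1.91-fold higher in shBMAL1 than in shARNT (log2 fold change 0.94, SE 0.0984, adjusted p 1.03e-19). In this direct test the ARNT and BMAL1 knockdowns therefore differed for ADM, as they did for STC1, STC2 and PTHLH.

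ADM2 lies on chromosome 22 (GRCh37, 50919972 to 50924869, plus strand, protein-coding). It was the least abundant of the 5, with 27 to 71 reads per library, and its estimates were the least precise. The shControl libraries had 66.4, 63.0 and 71.8 normalised counts. The shARNT libraries had 37.0, 26.5 and 36.8, and the shBMAL1 libraries had 31.8, 48.4 and 61.7. Both knockdown groups lay below all controls, shBMAL1 only narrowly, and the shBMAL1 libraries spread widely enough to overlap shARNT. The log2 fold change was −1.001 (SE 0.312, adjusted p 0.00669) under shARNT. Under shBMAL1 it was −0.51 (SE 0.309, adjusted p 0.224), with a 95% confidence interval from −1.11 to 0.10. The direct difference was 0.50 (SE 0.364, adjusted p 0.335), with an interval from −0.21 to 1.21. Without the first shBMAL1 library these values became −0.29 and 0.72, and without the third −0.75 and 0.26, none of them called. At this depth neither a change under shBMAL1 nor a difference between the knockdowns was detectable, and the intervals include changes as large as those of STC1 and STC2. In ADM2, 131 exon bases (3.05%) overlap SBF1 on the opposite strand.

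Genes beside ADM and ADM2 were examined next. They were chosen after the values had been seen, as those within 5000 bases that the table listed by name. AMPD3, an AMP deaminase, begins 916 bases beyond ADM on the same strand, and its levels were 573 ± 61.4 in shControl against 245 ± 22.6 in shARNT and 383 ± 73.2 in shBMAL1. AMPD3 was called lower in both knockdowns, with log2 fold changes of −1.22 under shARNT (adjusted p 6.19e-20) against −0.59 under shBMAL1 (adjusted p 0.000253). ADM next to it was called lower in shARNT alone. SBF2, a gene of the myotubularin family, lies 196 bases from ADM on the opposite strand. Its log2 fold change was −0.27 under shARNT (adjusted p 0.000162) against 0.00 under shBMAL1 (adjusted p 0.982), from a shControl level of 3229 ± 199.

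MIOX, the myo-inositol oxygenase of the renal proximal tubule, lies 344 bases beyond ADM2 on the same strand. It had 1355 ± 84.7 normalised counts in shControl against 860 ± 129 in shARNT and 910 ± 57.9 in shBMAL1. MIOX was called lower in both knockdowns, with log2 fold changes of −0.65 (adjusted p 1.15e-09) and −0.58 (adjusted p 3.22e-09). SBF1, a relative of SBF2 that overlaps ADM2, had 7381 ± 294 normalised counts in shControl. Its log2 fold change was −0.10 under shARNT (adjusted p 0.147) against −0.39 under shBMAL1 (adjusted p 2.35e-08). Both genes beside ADM2 drew many more reads than ADM2 in every library, and the part of such reads in the ADM2 count was not tested.

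**Figure D3:**
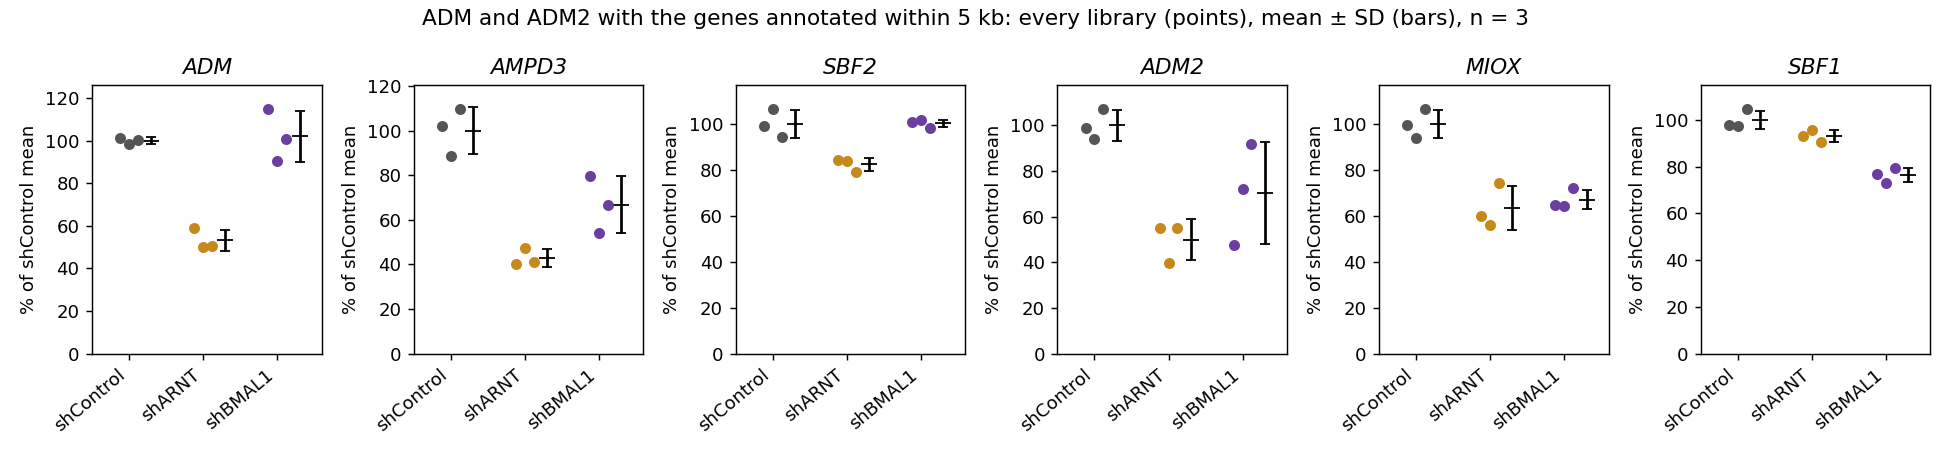
Levels of ADM and ADM2 and of the genes beside them (AMPD3, SBF2, MIOX, SBF1) in every library as a percent of the shControl mean of the same gene (points, n = 3 per group), with the mean ± SD beside them. AMPD3 was lower in both knockdowns while ADM was lower in shARNT alone, and each panel has its own axis from 0.

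Receptors of the adrenomedullins and of the parathyroid hormone family were nearly absent from the cells, apart from ACKR3, and no receptor of the stanniocalcins was examined. Of 9 receptors and receptor partners, RAMP1, RAMP3, GPR182 and PTH2R had no read in any library. A count of 0 allows an expected count of up to about 3 reads per library at 95% confidence, for counting error only. RAMP2, CALCR and PTH1R had group means of 5.95 or less. CALCRL, the receptor of both adrenomedullins, had 9.38 ± 2.90 normalised counts in shControl against 15.2 ± 14.4 in shARNT and 16.3 ± 9.02 in shBMAL1, and it was not called in either knockdown. The related hormone genes CALCA, IAPP, PTH and PTH2 also had no read, and CALCB had a group mean of 0.671 at most.

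ACKR3 was the exception among the receptors. It encodes an atypical chemokine receptor that also binds adrenomedullin and lowers its level. ACKR3 had 1286, 1402 and 1329 normalised counts in shControl, 128, 155 and 143 in shARNT, and 801, 617 and 517 in shBMAL1. The groups did not overlap, and shBMAL1 was intermediate. The log2 fold change was −3.23 (SE 0.111, adjusted p 9.35e-184) under shARNT and −1.06 (SE 0.125, adjusted p 1.08e-15) under shBMAL1. Between the knockdowns the difference was 2.18 (SE 0.163, adjusted p 1.63e-38). ACKR3 was therefore lowered in shBMAL1, where ADM was not called.

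The prohormones of ADM, ADM2 and PTHLH need cutting and trimming before release. A list of 10 genes held enzymes for this and MME, neprilysin, which instead degrades small peptides such as adrenomedullin. Of these 8 were tested, and PCSK1 and PCSK2, the convertases of endocrine cells, were at or near 0. Under shARNT 5 were called lower, MME among them, 1 higher and 2 were not called, with a median log2 fold change of −0.23, where 19% of all genes tested were called lower and 16.5% higher. Under shBMAL1 2 were called lower, 2 higher and 4 were not called, with a median of −0.02, close to the shares of 19.4% lower and 17.4% higher over all genes tested. The most divergent was CPE, the carboxypeptidase that trims cut prohormones. CPE had 1203 ± 34.4 normalised counts in shControl against 573 ± 41.5 in shARNT and 4034 ± 289 in shBMAL1. It thus fell under shARNT (log2 fold change −1.07, adjusted p 7.13e-32) and rose under shBMAL1 (1.74, adjusted p 1.22e-107). FURIN, the general convertase of the secretory pathway, fell in both, by 0.23 under shARNT (adjusted p 0.000814) as well as by 0.74 under shBMAL1 (adjusted p 8.99e-19) on the log2 scale. PCSK6, another convertase, rose under shBMAL1 from 75.1 ± 7.16 to 234 ± 39.9 (log2 fold change 1.64, adjusted p 2.48e-14). PCSK5, a further convertase, fell by 0.53 under shARNT (adjusted p 2.46e-11) and had 0.05 under shBMAL1 (adjusted p 0.669). PCSK7 was called in neither knockdown, at 0.04 (adjusted p 0.709) and −0.04 (adjusted p 0.79). CPD, a carboxypeptidase of the secretory pathway, was called higher under shARNT, at 0.21 (adjusted p 0.000498), and lower under shBMAL1, at −0.18 (adjusted p 0.0205). PAM, which amidates adrenomedullin, fell by 0.22 under shARNT (adjusted p 2.47e-05), whereas it had −0.01 under shBMAL1 (adjusted p 0.937). MME fell by 1.16 under shARNT (adjusted p 4.24e-38), whereas it had −0.17 under shBMAL1 (adjusted p 0.131).

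The proteases that stanniocalcins inhibit went different ways. PAPPA2 had 145 ± 12.1 normalised counts in shControl against 33.8 ± 8.13 in shARNT and 84.3 ± 21.1 in shBMAL1. Its log2 fold change was −2.10 under shARNT (SE 0.259, adjusted p 1.85e-14) against −0.78 under shBMAL1 (SE 0.228, adjusted p 0.00286). PAPPA was scarce, with 13.7 ± 2.58 in shControl and 33.7 ± 11.4 in shARNT, and was called higher there (log2 fold change 1.30, adjusted p 0.024). Under shBMAL1 PAPPA had 14.5 ± 1.86 (log2 fold change 0.08, adjusted p 0.941). IGFBP4, a binding protein that PAPPA cuts, rose under shARNT by a log2 fold change of 0.45 (adjusted p 0.0158) and had 0.21 under shBMAL1 (adjusted p 0.378).

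Calcium and phosphate handling genes, the classical setting of stanniocalcins and of the parathyroid hormone family, were mostly scarce in these cells. Of 14 genes 8 were tested, and 1 was called lower and 1 higher under shARNT, against 4 lower and none higher under shBMAL1. Over all genes tested, 19% were called lower and 16.5% higher under shARNT, and 19.4% and 17.4% under shBMAL1. SLC20A1, a sodium-phosphate cotransporter, had 11718 ± 497 normalised counts in shControl and 19005 ± 1287 in shARNT, a rise of 0.70 on the log2 scale (adjusted p 1.92e-31). In shBMAL1 it had 10288 ± 737, a change of −0.19 (adjusted p 0.0231). The vitamin D receptor VDR had 68.7 ± 9.44 in shControl and 36.1 ± 3.74 in shBMAL1, with a log2 fold change of −0.93 (adjusted p 0.00998). STIM1 and ORAI1, the sensor and the channel of store-operated calcium entry, were also called lower under shBMAL1, at −0.20 (adjusted p 0.0289) and −0.22 (adjusted p 0.0835), and STIM1 was the gene called lower under shARNT, at −0.16 (adjusted p 0.0531). The calcium-sensing receptor CASR and the calcium channel TRPV6 had no read.

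The ATF4 pathway is a stress response that also drives STC2 and ADM2. Of 10 genes of the pathway 9 were tested. Under shARNT 6 were called lower, 1 higher and 2 were not called, with a median log2 fold change of −0.56, where 19% of all genes tested were called lower. Under shBMAL1 3 were called lower, none higher and 6 were not called, with a median of −0.17. Over all genes tested, 19.4% were called lower and 17.4% higher. The most lowered of those called under shARNT were ASNS, asparagine synthetase, at −1.17 (adjusted p 2.41e-49) and CHAC1, which degrades glutathione, at −1.05 (adjusted p 1.81e-13). Under shBMAL1 these had −0.17 (adjusted p 0.185) and −0.17 (adjusted p 0.358). TRIB3, a pseudokinase, was the most lowered of the genes called under shBMAL1, with 8101 ± 215 normalised counts in shControl against 3995 ± 205 in shARNT and 5488 ± 426 in shBMAL1. Its log2 fold change was −1.02 under shARNT (adjusted p 2.55e-72) against −0.56 under shBMAL1 (adjusted p 3.32e-14). ATF4 itself came next among the genes called under shBMAL1, at −0.30 (adjusted p 6.16e-07), and had −0.41 under shARNT (adjusted p 2.33e-12). ATF5 was called higher under shARNT, at 0.74 (adjusted p 8.82e-06).

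Other secreted factors that respond to hypoxia were also examined. Of 9 such genes 7 were tested under shARNT and all 7 were called lower, with a median log2 fold change of −1.36, where 19% of all genes tested were called lower. Under shBMAL1 the same 7 were tested, of which 5 were called lower and 2 higher, with VEGFA, vascular endothelial growth factor, at the median of −0.46, where 19.4% of all genes tested were called lower and 17.4% higher. EDN1, the vasoconstrictor endothelin 1, had 694 ± 66.7 normalised counts in shControl against 134 ± 10.1 in shARNT and 1430 ± 50.1 in shBMAL1. Its log2 fold change was −2.37 under shARNT (adjusted p 2.5e-68) against 1.04 under shBMAL1 (adjusted p 1.99e-26). PDGFB, a platelet-derived growth factor chain, was lowered by both, at −1.95 (adjusted p 5.78e-47) and −0.65 (adjusted p 1.67e-06). LOX, lysyl oxidase, had −1.58 (adjusted p 1.99e-30) and −1.11 (adjusted p 2.58e-16). ANGPTL4, an inhibitor of lipoprotein lipase, had −1.14 (adjusted p 7.74e-50) and −1.10 (adjusted p 1.65e-25). Beside EDN1 the gene called higher in shBMAL1 was IGFBP3, a binding protein of insulin-like growth factors, at 0.78 (adjusted p 2.51e-31). EPO, erythropoietin, is left out of these counts, because it had no read in shControl and entered the test only through shBMAL1, where its mean was 4.32 normalised counts. In the direct comparison 6 of 7 tested were called higher in shBMAL1 and none lower, with a median of 0.90. Over all genes tested, 17.2% were called higher and 18% lower.

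**Figure D4:**
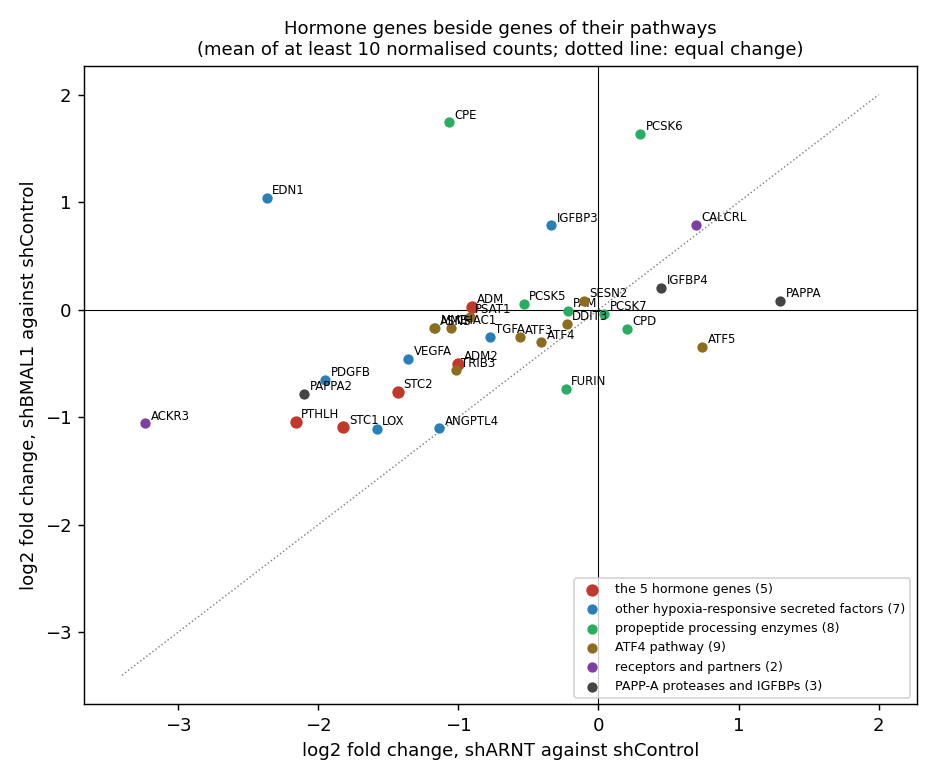
Log2 fold change under shBMAL1 (vertical axis) against log2 fold change under shARNT (horizontal axis), both relative to the same shControl libraries, for the hormone genes and the listed pathway genes that averaged 10 or more normalised counts; the dotted line marks equal change. PTHLH, STC1 and STC2 lie at negative values on both axes, ADM lies near 0 on the vertical axis, and EDN1 and CPE lie at negative values for shARNT and positive values for shBMAL1.

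Across the 9 libraries STC1, STC2 and PTHLH followed one another closely. On log2 normalised counts Pearson's r was 0.973 between STC1 and STC2, 0.979 between STC1 and PTHLH, and 0.980 between STC2 and PTHLH. ADM was less like them, with r from 0.775 with STC1 to 0.852 with PTHLH. For ADM2, the least precise, r ran from 0.645 with ADM to 0.894 with STC2. These values describe 9 points that fall into the 3 groups and share libraries, so they mostly restate the group means.

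The genes most like each hormone gene were sought by the same measure among 11821 genes that averaged 100 or more normalised counts. An r above 0.9 was reached by 250 genes (2.11%) for STC1, 227 (1.92%) for STC2, 274 (2.32%) for ADM and 289 (2.44%) for PTHLH. The closest to PTHLH were TNFSF10, the death ligand TRAIL (r = 0.995), ERO1A, an oxidase of the endoplasmic reticulum (0.993), and FARP2 (0.990). TNFSF10 had mean normalised counts of 20444 in shControl against 10966 in shARNT and 14772 in shBMAL1. The closest to STC1 were LPCAT1, a phospholipid acyltransferase (0.986), RASSF4 (0.985) and PEX5L (0.984). The closest to STC2 were HADHA, an enzyme of mitochondrial fatty acid oxidation (0.989), MARS, a methionyl-tRNA synthetase (0.988), and MGC20647 (0.986).

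The closest to ADM were PLEKHH1 (0.988), LOXL2, a lysyl oxidase relative (0.986), and ALDH2, aldehyde dehydrogenase 2 (0.983). LOXL2 had mean normalised counts of 29979 in shControl against 14303 in shARNT and 28223 in shBMAL1. Because the genes were picked for their r with each hormone gene over these libraries, the likeness of their group means was fixed by the choice. ADM2 had a mean under 50 normalised counts and was left out of this search.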

How the data were processed

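RNA was sequenced from 9 libraries of 786-O cells, 3 each for shControl, shARNT and shBMAL1. The values were estimated counts deposited by the authors, which give the total reads of each gene on a linear scale. The study's methods name GRCh37, SeqMan NGen and ArrayStar, while the submitters' processing notes name hg38 and STAR. The table holds no coordinates, and its annotation and strand setting are not given in the sources used here. Of its values 46.3% were 0.009, which stood in for 0 and was set to 0. Of the others 6.14% were fractional and were rounded to the nearest whole read. Rows that shared a name were added together, which removed 55 rows. In 28 rows the name was a date, and these stayed in the fits unnamed.

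Each comparison was fitted on its 6 libraries over the whole table in DESeq2 version 1.42.0 (R 4.3.3) with median-of-ratios size factors, two-sided Wald p-values, independent filtering at 0.1, and adjustment by Benjamini and Hochberg. Genes were called at an adjusted p under 0.1. Normalised counts use size factors over all 9 libraries. Depth per library is given with the results. Intervals are 95% Wald intervals of the log2 fold change.

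Gene positions and exon lengths came from GENCODE v44 lifted to GRCh37. Promoters came from the RefSeq table of GRCh38.p14 and are shown for 4 of the 5 genes, without STC1.

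The genes and lists were chosen with earlier results of these data known, and 1 gene of the lists is not reported here. Text names the 5 genes in full, receptors and enzymes with a mean of at least 10, the 2 most lowered and 2 most raised called genes of other lists, and the 3 genes most like each member with a mean of at least 50. The alternatives tried were the quasi-likelihood test of edgeR 4.0.16, TMM or library-total scaling, a minimum of 10 counts in 3 libraries, no filter, a threshold of 0.05, a fit of all 9 libraries, a replicate block, and leaving out each library.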

Additional observations from a re-analysis of the deposited data

How the results depend on the processing

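Under all 14 alternatives of each comparison, 5 of the hormone genes were called under shARNT, 3 under shBMAL1 and 4 in the direct comparison. The only value that changed sign was that of ADM under shBMAL1, which was −0.066 (adjusted p 0.595) without the first shBMAL1 library. Leaving out each library in turn gave −0.066 to 0.11 for it, and it passed the threshold under no alternative. ADM2 had only 27 to 71 reads per library, and its value under shARNT ran from −1.08 to −0.86 with adjusted p from 0.00274 to 0.0648, so that at the 0.1 threshold it stayed called. Leaving out 1 library moved ADM2 to between −0.75 and −0.29 under shBMAL1 and between 0.26 and 0.72 in the direct comparison, none of them called. Genes called over the whole table numbered 5376, 7004 and 6408 in the 3 comparisons. With the replicate number as a block they numbered 4151, 5743 and 5387, and ADM2 under shARNT had −1.01 (adjusted p 0.0455). Deviations of libraries with the same number had correlations from −0.154 to 0.105, so the numbers were not taken to pair the libraries.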
